A study of Mus musculus with 22 samples.

Results

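The 10 genes described here encode the machinery by which a cell shows peptides from its own interior to cytotoxic T cells. They are H2-K1, H2-D1, H2-Q4, H2-Q6, H2-Q7, H2-T23, B2m, Tap1, Tap2 and Nlrc5, and were taken by symbol from the 55487 gene identifiers of the tables. On GRCm38 the genes for the heavy chains and the transporter lie in the major histocompatibility complex on chromosome 17, from H2-K1 at 33996017 to 34000347 through Tap1 at 34187553 to 34197225, Tap2 at 34203527 to 34216321, H2-D1 at 35262730 to 35267499, H2-Q4 at 35379617 to 35385290, H2-Q6 at 35424850 to 35430055 and H2-Q7 at 35439155 to 35443773 to H2-T23 at 36029773 to 36032855. B2m lies on chromosome 2 at 122147686 to 122153083 and Nlrc5 on chromosome 8 at 94434356 to 94527272. All 10 had counts in all 22 libraries and passed the filter on low counts in both cohorts. A class I molecule is a heavy chain paired with the light chain B2m. The TAP transporter pumps peptides made by the proteasome into the endoplasmic reticulum, where they are loaded onto the heavy chain. Transcription is driven by the transactivator NLRC5 at a conserved promoter module and by interferon through IRF1. Nearly all nucleated cells carry class I, brown adipocytes included, and immune cells carry much more of it.

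RNA was sequenced from interscapular brown adipose tissue (BAT) of C57BL/6 mice that were wild type (CPEB2-WT) or lacked the translational regulator CPEB2 in all tissues (CPEB2-KO). Both genotypes came from heterozygous crosses and ate a chow with 9% fat. An untreated cohort held 5 WT and 5 KO libraries from mice of 21 to 25 weeks. The study deprived these mice of food for several hours before collecting their BAT. A second cohort crossed genotype with virus, AAV-GFP or AAV-PRDM16, with 3 libraries in each of its 4 groups. In that cohort 20000000000 vector genomes of an adeno-associated virus in 30 µl had been injected into the BAT at 16 weeks, and tissue was taken 9 weeks later at 25 weeks. PRDM16 is a transcriptional coregulator that keeps brown adipocyte identity, and in this vector it carried a flag tag. All 4 groups of the second cohort carry a virus, so no virus-free control stands beside them. The viral promoter is not given in the sources used here. Replicates are numbered by the labels, which name no mice, and the legends of the study count the members of each group as mice.

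Libraries held 55320927 to 162721202 counts in the untreated cohort and 61636889 to 143005309 in the AAV cohort. Levels are given as CPM, the counts of a gene scaled to a common library size, after TMM scaling within a cohort. In the AAV cohort Cpeb2 was at 4.33 to 5.55 CPM in the 6 KO libraries and at 10.5 to 14.0 CPM in the 6 WT libraries, and Prdm16 was at 23.9 to 40.2 CPM with AAV-GFP and at 45.9 to 128 CPM with AAV-PRDM16, where the count can include the viral transcript. WT + AAV-PRDM16 replicate 3 was the library at 45.9 CPM of Prdm16, the lowest of the 6 injected with AAV-PRDM16. In the untreated cohort the library labelled KO replicate 1 had Cpeb2 at 11.7 CPM, within the WT range of 7.69 to 14.3 CPM. The labels give male mice, but 6 of the 10 untreated libraries, WT replicates 3 and 5 and KO replicates 1, 3, 4 and 5, had at most 1.2 CPM of 4 Y-linked transcripts in sum beside at least 104 CPM of Xist. WT replicate 4, the highest WT library for H2-D1 and B2m, held both, at 116 CPM of the Y-linked transcripts and 14.0 CPM of Xist. Skeletal muscle transcripts summed to 6.9 to 5726 CPM across the untreated libraries. Brown adipocyte markers were high in every library, at 4045 to 13793 CPM in sum.

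The promoters of the class I genes share some short elements, though not all of them. RefSeq promoters on GRCm38.p6, from 250 bases before to 50 bases after a start site, were matched by symbol for 8 of the 10 genes, with 9 entries because H2-K1 has 2 start sites. Tap2 and Nlrc5 were not matched. Shown here is 1 promoter for each role that the results turn on: a classical heavy chain, the non-classical heavy chain, among the 10 genes, with the largest difference between viruses, the light chain and the transporter. Capitals mark matches, on either strand, to the Y box core CCAAT (reverse ATTGG), the X2 box core TGACG (reverse CGTCA), the interferon-stimulated response element core GAAANNGAA (reverse TTCNNTTTC), the gamma-activated site TTCNNNGAA and an NF-kB site. The H2-K1 sequence is chr17:34000298-34000597 on the minus strand, H2-T23 is chr17:36032652-36032951 on the minus strand, B2m is chr2:122147437-122147736 on the plus strand and Tap1 is chr17:34187306-34187605 on the plus strand.
H2-K1: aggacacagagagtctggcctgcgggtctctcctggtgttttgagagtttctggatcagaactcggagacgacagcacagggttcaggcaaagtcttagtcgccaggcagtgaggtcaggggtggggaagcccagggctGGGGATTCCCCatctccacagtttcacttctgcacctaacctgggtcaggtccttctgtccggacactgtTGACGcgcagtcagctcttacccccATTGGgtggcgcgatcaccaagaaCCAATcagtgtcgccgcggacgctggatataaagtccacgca
H2-T23: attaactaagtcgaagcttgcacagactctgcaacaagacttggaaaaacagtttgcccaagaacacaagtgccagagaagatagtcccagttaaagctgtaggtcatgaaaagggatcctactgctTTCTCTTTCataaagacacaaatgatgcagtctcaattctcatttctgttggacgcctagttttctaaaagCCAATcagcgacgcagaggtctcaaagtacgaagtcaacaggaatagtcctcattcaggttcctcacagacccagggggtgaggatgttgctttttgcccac
B2m: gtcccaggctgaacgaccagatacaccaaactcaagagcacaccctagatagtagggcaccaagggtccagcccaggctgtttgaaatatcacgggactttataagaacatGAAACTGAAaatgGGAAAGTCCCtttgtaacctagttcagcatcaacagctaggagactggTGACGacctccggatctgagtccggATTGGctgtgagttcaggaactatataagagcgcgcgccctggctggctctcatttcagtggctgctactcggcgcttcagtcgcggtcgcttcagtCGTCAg
Tap1: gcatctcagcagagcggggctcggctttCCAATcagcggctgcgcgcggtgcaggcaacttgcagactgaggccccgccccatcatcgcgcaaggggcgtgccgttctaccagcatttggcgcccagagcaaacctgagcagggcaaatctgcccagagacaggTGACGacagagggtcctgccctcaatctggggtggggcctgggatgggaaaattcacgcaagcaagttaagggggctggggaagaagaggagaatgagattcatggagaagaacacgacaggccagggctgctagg

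The Y box core was present in all 9 entries, against 37.4% of the 32851 promoters of the same length. The X2 box core was present in 7 of 9, against 20.8% of promoters, and was not found in H2-Q6 and H2-T23. The letters TGACG lie before ATTGG in H2-K1, H2-D1, H2-Q7 and B2m, and after it in H2-Q4. In Tap1 the only Y box core lies before TGACG, so the count takes in matches in more than 1 arrangement. An NF-kB match was present in 7 of 9, against 4.51% of promoters, and was absent from H2-T23 and Tap1. In H2-K1 the letters ATTGG and CCAAT stand 24 bases apart, first base to first base, a spacing also found in H2-Q4, H2-Q6 and H2-Q7, and in H2-D1 they stand 23 bases apart. GAAANNGAA was found in H2-T23 and B2m only, against 8.56% of promoters, and TTCNNNGAA in none of the 9, against 8.3% of promoters. The promoters of H2-K1, H2-D1, H2-Q4, H2-Q6 and H2-Q7 all hold the letters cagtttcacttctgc. There the blocks tttc and ttc stand in the other order from the reverse core TTCNNTTTC, so the search did not match them. Its result therefore cannot decide whether these heavy chain promoters carry an interferon-stimulated response element. The NF-kB matches in the heavy chain promoters overlap one another, and no other motif overlapped another in the sequences shown. A match describes letters in this window and is not a measured binding site, and the lack of a match says only that these letters are not in this window.

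Per kb of exon the gene levels were set side by side, and by this measure B2m was the most abundant of the 10 and Nlrc5 the least. The exon length is the union of all annotated exons of a gene and can exceed that of a transcript, so the order is uncertain. H2-Q7 has 4265 bases of exon and H2-Q6 has 2085. In WT + AAV-GFP H2-Q7 was above H2-Q6 in CPM, at 18.6 against 15.9, and below it per kb. In WT + AAV-GFP, B2m was at 309 ± 83.1 CPM per kb (SD, n = 3), H2-D1 at 138 ± 34.3 and H2-K1 at 83.9 ± 23.3. These 3 genes stand apart from the rest of the list. H2-Q4 was at 10.4 ± 0.98, Tap2 at 10.1 ± 2.43, H2-Q6 at 7.61 ± 0.75, H2-T23 at 5.46 ± 1.87, H2-Q7 at 4.37 ± 0.91, Tap1 at 3.39 ± 0.89 and Nlrc5 at 1.65 ± 0.71 CPM per kb. H2-D1 and H2-K1 differed by less than the sum of their SDs, as did each pair of neighbours from H2-Q4 down to Tap1, while B2m and H2-D1, and Tap1 and Nlrc5, differed by more. H2-Q4, H2-Q6 and H2-Q7 are close paralogs, and reads could be split between them in a way the sources used here do not give, so their separate levels are uncertain. Exons of Tap1 overlap Psmb9, those of Tap2 overlap Gm15821 and Gm20496, those of H2-Q4 overlap Gm11131 and those of Nlrc5 overlap 9330175E14Rik on the opposite strand. The use of strand in counting is not given in the sources used here.

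**Figure D1:**
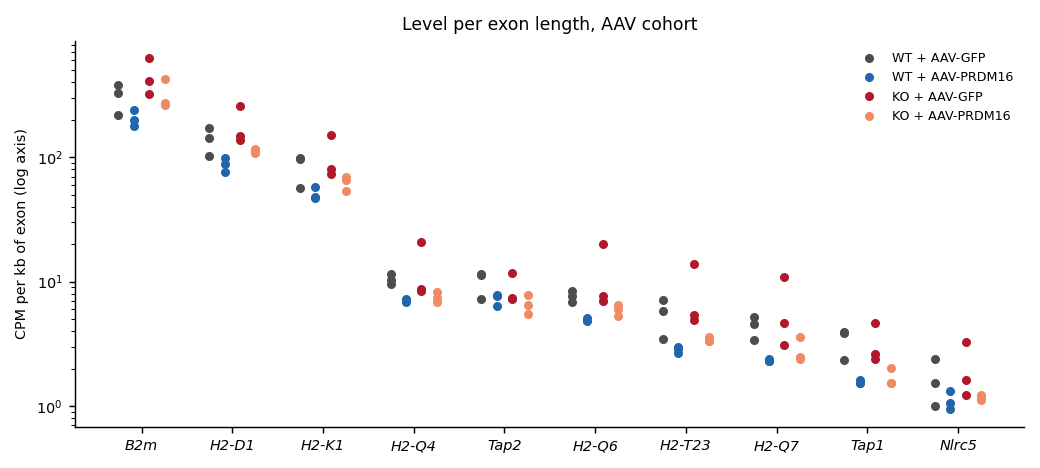
CPM per kb of exon on a log axis for each of the 10 genes in the 12 AAV libraries, 1 point per library, with genes ordered by their mean in WT + AAV-GFP. B2m, H2-D1 and H2-K1, with means of 309, 138 and 83.9 CPM per kb in WT + AAV-GFP, lie well above H2-Q4 at 10.4 and the 6 genes below it.

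To ask whether PRDM16 delivery altered class I transcripts in BAT, AAV-PRDM16 was compared with AAV-GFP within each genotype and, as a contrast added after seeing the data, over both genotypes. All 10 genes were lower with AAV-PRDM16 than with AAV-GFP in WT and all 10 in KO. The median log2 fold change of the 10 was -0.64 in WT and -0.78 in KO, beside medians over all 18899 genes tested of -0.01 in each. No member passed an adjusted p of 0.05 by edgeR's quasi-likelihood test in either genotype, where 0% of all genes passed, while 6 in WT and 8 in KO had an unadjusted p under 0.05 and DESeq2 called 1 and 2. The WT and KO comparisons use different libraries and share 1 estimate of the spread from a fit over all 12.

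The classical heavy chains H2-K1 and H2-D1 present most peptides to CD8 T cells. H2-K1 was at 168, 282 and 290.1 CPM in WT + AAV-GFP and at 139, 142 and 171 CPM in WT + AAV-PRDM16. In KO + AAV-GFP it was at 236, 214 and 447 CPM, and in KO + AAV-PRDM16 at 159, 202 and 191 CPM. The groups did not overlap in KO, and in WT the lowest AAV-GFP library lay just below the highest AAV-PRDM16 library. The log2 fold change of H2-K1 was -0.71 (SE 0.27) in WT and -0.70 (SE 0.27) in KO, with adjusted p of 0.564 and 0.592 by edgeR's quasi-likelihood test. H2-D1 was at 265, 365 and 441 CPM in WT + AAV-GFP against 196, 229 and 253 CPM in WT + AAV-PRDM16. In KO it was at 379.7, 355 and 665 CPM with AAV-GFP against 279, 303 and 297 CPM with AAV-PRDM16. H2-D1 did not overlap between the viruses in either genotype, with log2 fold changes of -0.66 (SE 0.23) and -0.67 (SE 0.23).

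H2-T23 encodes Qa-1, a non-classical heavy chain read by the NKG2A receptor of natural killer cells. It was at 9.96, 20.6 and 16.7 CPM in WT + AAV-GFP and at 8.68, 7.70 and 8.37 CPM in WT + AAV-PRDM16. In KO + AAV-GFP it was at 14.1, 15.5 and 40.2 CPM and in KO + AAV-PRDM16 at 9.60, 10.3 and 9.61 CPM. Every AAV-PRDM16 library was below every AAV-GFP library of its genotype, and the log2 fold change was -0.94 (SE 0.35) in WT and -1.25 (SE 0.35) in KO, the largest in KO. H2-Q7, of the Qa-2 family, was at 14.4, 22.1 and 19.4 CPM in WT + AAV-GFP and at 9.89, 9.77 and 10.2 CPM in WT + AAV-PRDM16. In KO it was at 13.2, 19.8 and 46.9 CPM with AAV-GFP and at 10.3, 15.2 and 10.5 CPM with AAV-PRDM16. The viruses did not overlap for H2-Q7 in WT and did overlap in KO, with log2 fold changes of -0.91 (SE 0.36) and -1.15 (SE 0.36). H2-Q4 was at 24.7 to 29.8 CPM in WT + AAV-GFP, 17.8 to 18.7 CPM in WT + AAV-PRDM16, 21.8 to 54.6 CPM in KO + AAV-GFP and 17.8 to 21.5 CPM in KO + AAV-PRDM16. H2-Q6 followed the same order, at 14.3 to 17.4, 10.0 to 10.6, 14.5 to 42.1 and 10.99 to 13.6 CPM. For H2-Q4 and H2-Q6 all 6 AAV-PRDM16 libraries were below all 6 AAV-GFP libraries.

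B2m, the light chain shared by all class I molecules, was at 188, 282 and 328 CPM in WT + AAV-GFP and at 153, 171 and 205 CPM in WT + AAV-PRDM16. In KO it was at 353, 278 and 537 CPM with AAV-GFP and at 235, 226 and 366 CPM with AAV-PRDM16. The viruses overlapped in both genotypes for B2m, whose log2 fold changes were -0.59 (SE 0.27) and -0.50 (SE 0.27).

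Tap1 and Tap2 encode the subunits of the peptide transporter. Tap1 was at 12.96, 21.5 and 21.3 CPM in WT + AAV-GFP and at 8.46, 8.36 and 8.84 CPM in WT + AAV-PRDM16. In KO + AAV-GFP it was at 13.2, 14.2 and 25.7 CPM and in KO + AAV-PRDM16 at 8.40, 11.2 and 8.34 CPM. The lowest of the 6 AAV-GFP libraries was above the highest of the 6 AAV-PRDM16 libraries, and the log2 fold change of Tap1 was -1.12 (SE 0.26) in WT and -0.93 (SE 0.25) in KO. The adjusted p by edgeR's quasi-likelihood test was 0.459 in WT and 0.325 in KO. Tap2 was at 27.4, 43.9 and 42.7 CPM in WT + AAV-GFP and at 29.7, 24.3 and 28.8 CPM in WT + AAV-PRDM16, and at 28.1, 27.6 and 44.4 CPM in KO + AAV-GFP and at 24.4, 29.7 and 20.8 CPM in KO + AAV-PRDM16. The viruses overlapped for Tap2 in both genotypes, and its log2 fold changes of -0.46 (SE 0.22) and -0.42 (SE 0.22) were the smallest of the 10.

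Nlrc5, the transactivator of class I heavy chains, B2m and Tap1, was at 8.48, 20.5 and 13.1 CPM in WT + AAV-GFP and at 11.2, 8.02 and 8.98 CPM in WT + AAV-PRDM16. In KO it was at 10.5, 13.7 and 27.6 CPM with AAV-GFP and at 9.47, 10.1 and 10.4 CPM with AAV-PRDM16. The viruses overlapped in WT and did not in KO, with log2 fold changes of -0.58 (SE 0.34) and -0.79 (SE 0.35).

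**Figure D2:**
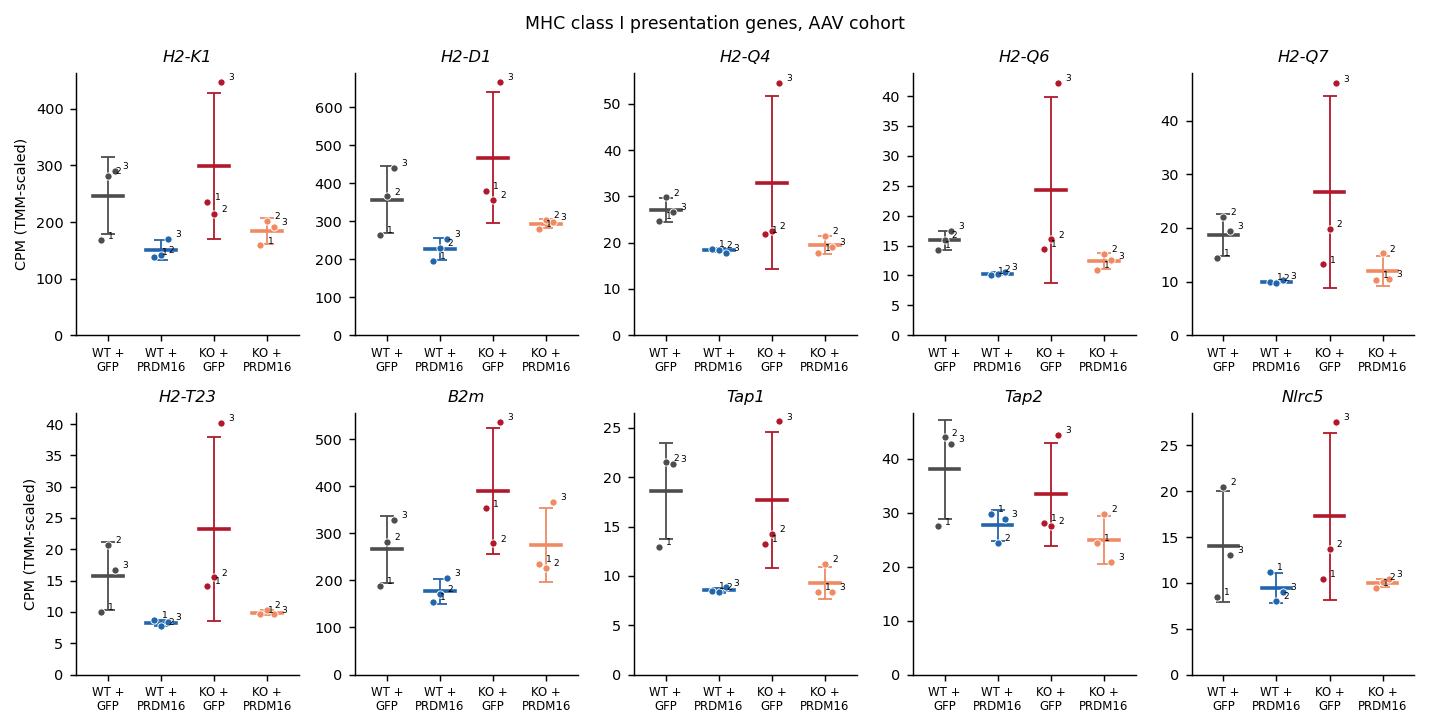
CPM of each of the 10 genes in the 12 AAV libraries, with points numbered by replicate, a bar at the mean of 3 and a whisker of 1 SD, each panel on its own axis from 0. KO + AAV-GFP replicate 3 is the highest library in every panel, and the AAV-PRDM16 groups are lower in mean than the AAV-GFP group of the same genotype.

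Counted over the list, 6 of 10 genes were lower at an unadjusted p under 0.05 in WT, where 5.19% of all genes were, and 6 of 10 did not overlap, where 7.76% of all genes were lower without overlap. In KO the counts were 8 of 10 at p under 0.05, beside 5.1% of all genes, and 7 of 10 without overlap, beside 6.05%. DESeq2 called Tap1 in WT, among 0.873% of all genes, and H2-T23 and Tap1 in KO, among 1.44%. Over both genotypes all 10 were lower at p under 0.05, beside 7.02% of all genes, and 3 of 10, H2-Q4, H2-Q6 and Tap1, did not overlap between the 6 libraries of each virus, beside 0.487%. No member was called there by edgeR, which called 0.037% of all genes, while DESeq2 called 7 members, all but B2m, Tap2 and Nlrc5, among 3.19%. Tap1 was nearest the threshold, with a log2 fold change over both genotypes of -1.02 (SE 0.18) and an adjusted p of 0.0528 by edgeR's quasi-likelihood test. The median of the 10 was -0.70.

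KO + AAV-GFP replicate 3 set much of the size in KO. It was the highest of the 12 libraries for all 10 genes. Without it the median log2 fold change with AAV-PRDM16 in KO was -0.30 in place of -0.78. All 10 genes were still lower, and 3 of 10, H2-Q6, H2-T23 and Tap1, had an unadjusted p under 0.05. The 7 of 10 without overlap stayed so by necessity, as leaving out the highest AAV-GFP library cannot make groups overlap. Over both genotypes without this library the median was -0.48 and all 10 had an unadjusted p under 0.05. WT + AAV-GFP replicate 1 was the lowest AAV-GFP library for 8 of the 10 genes, and without it the median in WT was -0.84. EdgeR then called 4 members over both genotypes, H2-K1, H2-D1, H2-T23 and Tap1. All 10 genes were then lower without overlap in WT, but leaving out a low AAV-GFP library can only remove overlap. Without KO + AAV-GFP replicate 1 edgeR called 3 members over both genotypes, H2-Q7, H2-T23 and Tap1. Leaving out a library changes the spread for all genes. The matching shares of all genes are not given for such fits, here or below, so these counts have no background beside them.

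The count at an unadjusted p under 0.05 moved with single libraries in WT as well. It was 2 of 10 in place of 6 without WT + AAV-GFP replicate 2 or replicate 3, or without WT + AAV-PRDM16 replicate 1 or replicate 2. It was 10 of 10 without KO + AAV-GFP replicate 3, a library that enters the WT comparison only through the shared spread and scaling. Tap1 was among the genes counted in WT whichever library was left out. In KO the count was 5 of 10 in place of 8 without KO + AAV-PRDM16 replicate 1.

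Markers of immune cells moved with the virus in the same libraries. The 11 T cell genes summed to 2.6 to 25.8 CPM in WT + AAV-GFP, 1.5 to 2.1 CPM in WT + AAV-PRDM16, 9.9 to 36.8 CPM in KO + AAV-GFP and 1.1 to 2.6 CPM in KO + AAV-PRDM16. All 11 were lower with AAV-PRDM16 in each genotype, 10 of 11 in WT and 11 of 11 in KO at an unadjusted p under 0.05, with medians of -3.29 and -3.24. Cd3e, Lck, Cd8a and Cd28 had counts in all 12 libraries, and the other 7 T cell genes were at 0 counts in 1 to 3 libraries. The 8 macrophage genes summed to 59.9 to 129.6 CPM in WT + AAV-GFP, 43.0 to 54.1 CPM in WT + AAV-PRDM16, 152 to 375 CPM in KO + AAV-GFP and 81.9 to 99.9 CPM in KO + AAV-PRDM16, with none at 0 in any library. In each genotype 7 of the 8 were lower at an unadjusted p under 0.05, with medians of -0.91 and -1.28. The 6 natural killer cell genes summed to at most 4.7 CPM, with medians of -3.80 and -2.97. Without KO + AAV-GFP replicate 3 the medians in KO were -2.37 for T cell genes, 7 of 11 at an unadjusted p under 0.05, and -0.56 for macrophage genes, 4 of 8. Endothelial genes had medians of -0.06 and 0.01, and brown adipocyte genes of 0.19 and 0.04. The part of these cells in the class I values was not tested, and in whole tissue fewer cells of a type and less RNA per cell cannot be told apart.

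**Figure D3:**
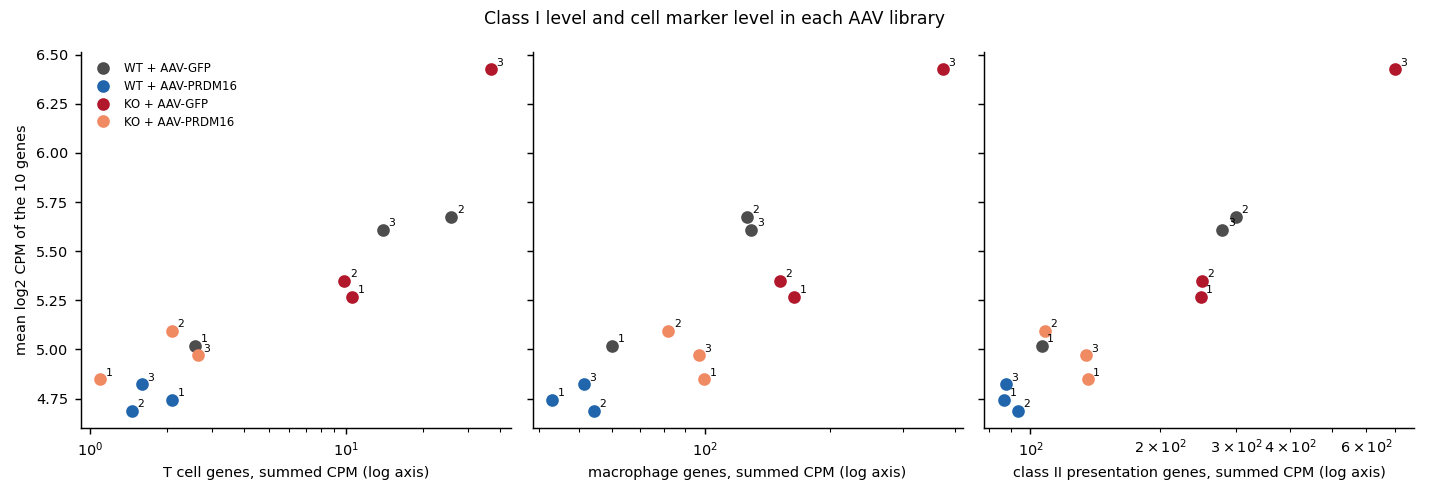
Mean log2 CPM of the 10 class I genes in each of the 12 AAV libraries against the summed CPM of T cell, macrophage and class II presentation genes on log axes, with points numbered by replicate. KO + AAV-GFP replicate 3 is highest on all axes, and WT + AAV-GFP replicate 1 lies beside the AAV-PRDM16 libraries.

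The next comparison asked whether loss of CPEB2 altered class I transcripts under each virus. With AAV-GFP, 8 of the 10 genes were higher in KO than in WT and Tap1 and Tap2 were lower, with a median log2 fold change of 0.35 beside 0.01 over all genes. None was called by edgeR, which called 0.0529% of all genes, or by DESeq2, which called 1.64%, and none had an unadjusted p under 0.05 by edgeR, beside 4.98% of all genes that were higher at that p. DESeq2 gave 2 members an unadjusted p under 0.05, and the share of all genes at that p by DESeq2 is not given here. None of the 10 was higher in KO without overlap, beside 6.51% of all genes. B2m had the smallest p, with a log2 fold change of 0.55 (SE 0.27) and an adjusted p of 0.587 by edgeR's quasi-likelihood test. Without KO + AAV-GFP replicate 3 the median was -0.16 and 8 of the 10 genes were lower in KO, so this 1 library set the direction. Without KO + AAV-GFP replicate 1 the median was 0.54 and 3 of 10, H2-Q6, H2-Q7 and H2-T23, were higher at an unadjusted p under 0.05. That count was 3 without KO + AAV-GFP replicate 2, 2 without WT + AAV-GFP replicate 3 and 1 without KO + AAV-PRDM16 replicate 3.

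With AAV-PRDM16, 9 of the 10 genes were higher in KO and Tap2 was lower, with a median of 0.26. B2m was higher at 235, 226 and 366 CPM in KO against 153, 171 and 205 CPM in WT, with a log2 fold change of 0.64 (SE 0.27) and an adjusted p of 0.319 by edgeR's quasi-likelihood test. It was the only member at an unadjusted p under 0.05 by edgeR or by DESeq2, beside 6.92% of all genes higher at that p by edgeR. No member was at that p by edgeR without WT + AAV-PRDM16 replicate 1 or replicate 2 or without KO + AAV-PRDM16 replicate 3, the last of which left B2m at a log2 fold change of 0.38, and 3 were without KO + AAV-GFP replicate 3. Without KO + AAV-PRDM16 replicate 2 the median was 0.13. H2-D1, H2-Q6, H2-Q7, H2-T23 and B2m, 5 of 10, were higher in KO without overlap, where 11.5% of all genes were. EdgeR called 0 members, beside 0.0476% of all genes, and DESeq2 called 0, beside 3.71%. Macrophage genes were higher in KO under both viruses, 8 of 8 at an unadjusted p under 0.05 with AAV-GFP and 7 of 8 with AAV-PRDM16, with medians of 1.11 and 0.90. Their part in the class I values was not tested.

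Averaged over both viruses, a contrast added after seeing the data, 9 of the 10 genes were higher in KO, with a median of 0.33. B2m at 0.60 (SE 0.19) and H2-D1 at 0.38 (SE 0.16) had an unadjusted p under 0.05, 2 of 10, beside 9.54% of all genes, and none of the 10 was higher without overlap, beside 1.13%. No member was called by edgeR, which called 2.18% of all genes, with an adjusted p for B2m of 0.114. DESeq2 called B2m, among 9.93%. Without KO + AAV-GFP replicate 3 the median was 0.06 and 6 of 10 genes were higher. The count at an unadjusted p under 0.05 was 5 without KO + AAV-GFP replicate 1, 3 without KO + AAV-GFP replicate 2, and B2m alone among higher genes in 7 of the other single-library leave-outs.

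Whether the difference between viruses depended on genotype was tested as an interaction. No member was called by edgeR, 0% of all genes were, and none had an unadjusted p under 0.05. DESeq2 called 0 members, beside 0.0053% of all genes. The median of the interaction over the 10 genes was -0.10, and without KO + AAV-GFP replicate 3 it was 0.36, with 1 gene at an unadjusted p under 0.05.

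Across the 4 AAV groups the order of means was the same for 7 of the 10 genes: lowest in WT + AAV-PRDM16, higher in KO + AAV-PRDM16, then WT + AAV-GFP, and highest in KO + AAV-GFP. The top place of KO + AAV-GFP rests on its replicate 3, without which H2-K1, H2-Q4, H2-Q6, H2-Q7, H2-T23 and Nlrc5, 6 of these 7 genes, had log2 fold changes below 0 in KO against WT with AAV-GFP. For B2m, WT + AAV-GFP stood below KO + AAV-PRDM16. Tap1 and Tap2 were highest in WT + AAV-GFP, and Tap2 was lowest in KO + AAV-PRDM16. The highest mean was 1.52 times the lowest for Tap2 and 2.82 times for H2-T23. WT + AAV-GFP and KO + AAV-GFP overlapped for all 10 genes, KO + AAV-PRDM16 and WT + AAV-GFP for 7 of 10, and WT + AAV-PRDM16 and KO + AAV-PRDM16 for 5 of 10.

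KO + AAV-PRDM16 was also set against WT + AAV-GFP, the comparison of treated mutants with control animals, which shares libraries with those above. Of the 10 genes 9 were lower in KO + AAV-PRDM16, with a median of -0.48. B2m stood at 0.05 (SE 0.27). Tap1 at -0.997 (SE 0.25) and Tap2 at -0.60 (SE 0.22) had an unadjusted p under 0.05, 2 of 10 beside 4.42% of all genes lower at that p, and H2-Q4, H2-Q6 and Tap1, 3 of 10, did not overlap, beside 7.09%. EdgeR called 0 members, beside 0.00529% of all genes, and DESeq2 called Tap1, among 0.832%. Without WT + AAV-GFP replicate 1 the count at an unadjusted p under 0.05 was 5, and without KO + AAV-GFP replicate 3 it was 7. It was 1, Tap1, without WT + AAV-GFP replicate 2 or replicate 3 or without KO + AAV-PRDM16 replicate 3.

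**Figure D4:**
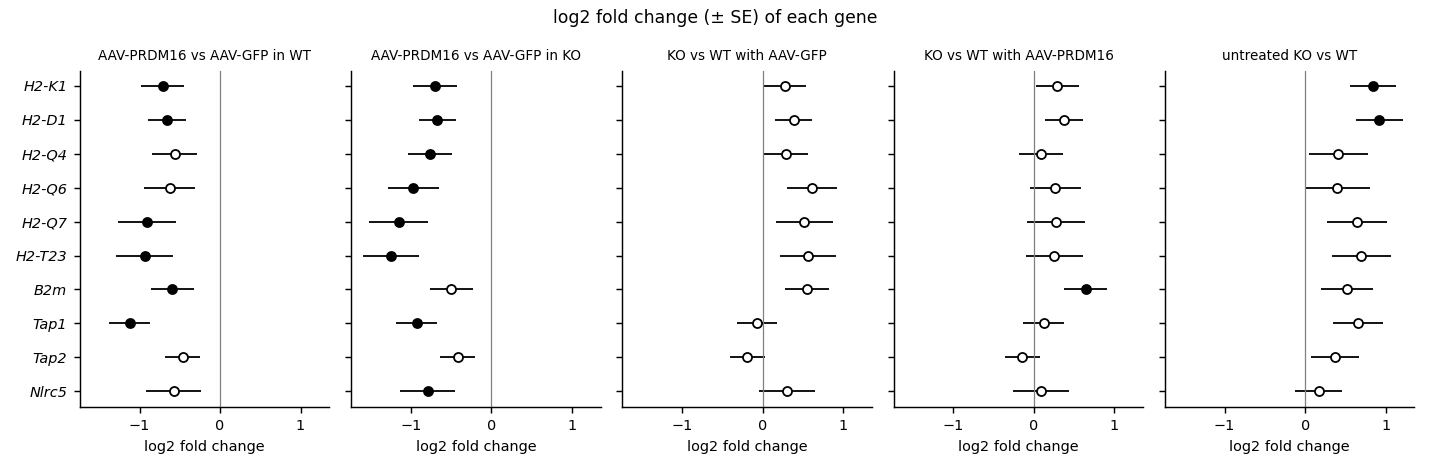
Log2 fold change of each of the 10 genes with its SE in 5 comparisons, with filled points for an unadjusted p under 0.05 by edgeR's quasi-likelihood test. All points lie left of 0 in the comparisons of AAV-PRDM16 with AAV-GFP and right of 0 in untreated KO against WT, where 2 are filled.

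In the untreated cohort all 10 genes were higher in KO than in WT, with a median log2 fold change of 0.58 beside 0.04 over the 17869 genes tested. H2-D1 was at 204, 253, 391, 420.5 and 197 CPM in the 5 WT libraries and at 456, 544, 594, 432 and 754 CPM in the 5 KO libraries. It was the only member whose groups did not overlap, 1 of 10, beside 0.492% of all genes higher without overlap, and its log2 fold change was 0.92 (SE 0.29). H2-K1 was at 127, 216, 272, 261 and 183 CPM in WT and at 242, 356, 458, 332 and 507 CPM in KO. Only KO replicate 1 lay within the WT range for H2-K1, whose log2 fold change was 0.84 (SE 0.29). Both had an unadjusted p under 0.05, 2 of 10 beside 4.99% of all genes, and an adjusted p of 0.305 by edgeR's quasi-likelihood test. No member was called by edgeR or DESeq2, and 0% of all genes were by either. DESeq2 gave 4 members an unadjusted p under 0.05, and the share of all genes at that p by DESeq2 is not given here.

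The other members overlapped more. B2m was at 158, 178, 336, 439.6 and 235 CPM in WT and at 526.4, 464, 351, 339 and 253 CPM in KO, with a log2 fold change of 0.52 (SE 0.33). H2-T23 was at 6.71, 9.49, 26.7, 18.0 and 14.6 CPM in WT and at 14.2, 29.6, 22.7, 21.98 and 33.9 CPM in KO, with a log2 fold change of 0.70 (SE 0.36). Tap1 was at 5.97 to 15.3 CPM in WT and at 12.2 to 27.4 CPM in KO, with a log2 fold change of 0.65 (SE 0.31). H2-Q4, H2-Q6 and H2-Q7 had log2 fold changes of 0.41, 0.40 and 0.64, and in each of them WT replicates 3 and 4 lay within the KO range. Tap2 at 0.37 (SE 0.30) and Nlrc5 at 0.17 (SE 0.29) had the smallest differences. WT replicates 1 and 2 were the lowest libraries for H2-Q4, H2-Q6, H2-Q7, H2-T23 and B2m.

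**Figure D5:**
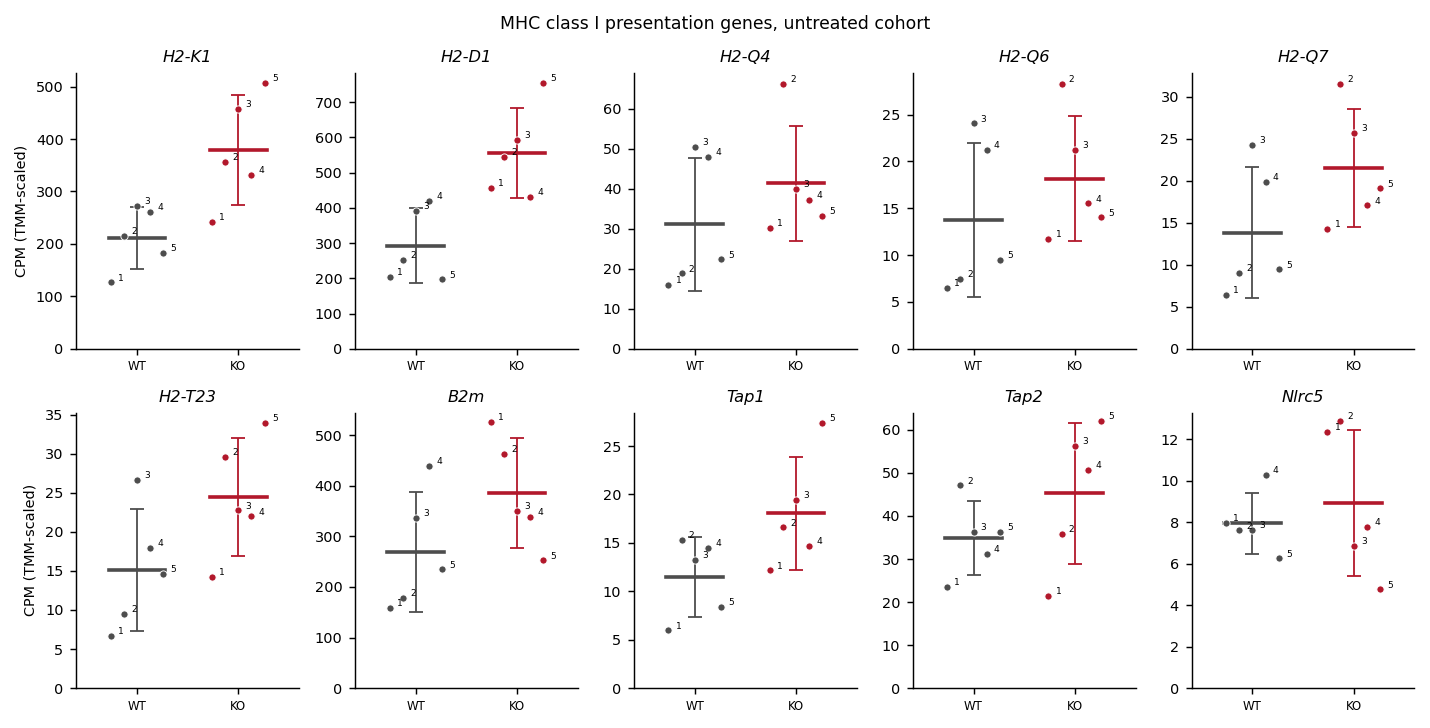
CPM of each of the 10 genes in the 5 WT and 5 KO untreated libraries, with points numbered by replicate, a bar at the mean and a whisker of 1 SD, each panel on its own axis from 0. H2-D1 is the panel in which no WT point reaches the KO points.

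Several features of the untreated libraries moved with these values. Without WT replicates 1 and 2 all 10 genes were still higher in KO, the median was 0.34 and none had an unadjusted p under 0.05. Among the 6 libraries without Y-linked transcripts, 2 WT and 4 KO, 8 of 10 were higher in KO, with a median of 0.29, and H2-Q4 and H2-Q6 were lower. Without KO replicate 1, whose Cpeb2 count was in the WT range, the median was 0.66 and 5 of 10 had an unadjusted p under 0.05. H2-K1 and H2-D1 then did not overlap, which follows from leaving out the only KO library within the WT range of H2-K1. The 8 macrophage genes summed to 48.1 to 349 CPM in WT and 70.8 to 468 CPM in KO, and the 11 T cell genes to 1.3 to 4.9 CPM and 2.6 to 6.5 CPM. All 8 macrophage genes were higher in KO, none at an unadjusted p under 0.05, with a median of 0.73, and their part in the class I values was not tested. The 7 skeletal muscle genes were all higher in KO, none at an unadjusted p under 0.05, with a median of 2.04. They summed to 5046 and 5726 CPM in KO replicates 1 and 2 and to 2902 CPM in WT replicate 3, and their part was not tested either. Genes of the mitochondrial genome held 24.64 to 34.53% of the counts in KO and 31.95 to 38.88% in WT. The part of this difference was also not tested. Without WT replicate 3 or WT replicate 4 the count of class I genes at an unadjusted p under 0.05 was 4, with medians of 0.70 and 0.76.

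Other genes of the class I pathway were taken from lists of its steps. Of 13 other class I heavy chains, 11 were lower with AAV-PRDM16 in each genotype, 3 in WT and 6 in KO at an unadjusted p under 0.05, with medians of -0.61 and -0.62. The 3 most abundant, per library and not per length, lay near 0. Fcgrt, the receptor that carries IgG, had log2 fold changes of 0.17 (SE 0.13) and 0.01 (SE 0.13), H2-Q10, a secreted heavy chain, of -0.06 (SE 0.45) and -0.06 (SE 0.45), and Cd1d1, which presents lipids, of 0.17 (SE 0.13) and 0.03 (SE 0.13). H2-M2, a low-level heavy chain named after its values were seen, was at 0.188, 1.18 and 0.655 CPM in WT + AAV-GFP and at 0 counts in all 3 WT + AAV-PRDM16 libraries. In KO it was at 1.25, 0.655 and 2.84 CPM with AAV-GFP and at 0, 0 and 0.0835 CPM with AAV-PRDM16, so the viruses did not overlap in either genotype. Of the 11 genes of peptide processing and loading, 9 were lower in WT and 10 in KO, 4 and 2 of them at an unadjusted p under 0.05, with medians of -0.36 and -0.26. The abundant chaperones of this list, which also fold many other proteins, also lay near 0. Canx was at 0.03 (SE 0.12) and 0.06 (SE 0.12), Calr at 0.01 (SE 0.14) and -0.07 (SE 0.14) and Pdia3 at -0.04 (SE 0.12) and -0.06 (SE 0.12).

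Of 15 transcriptional regulators of class I, 12 were lower with AAV-PRDM16 in WT and 10 in KO, 2 in each at an unadjusted p under 0.05, with medians of -0.13 in each. Irf1, the interferon-induced activator of class I promoters, was 1 of 15 that passed the adjusted test over both genotypes and is named here after its values were seen. It was at 28.6, 24.04 and 27.9 CPM in WT + AAV-GFP and at 15.5, 15.3 and 14.9 CPM in WT + AAV-PRDM16. In KO it was at 21.96, 22.2 and 27.7 CPM with AAV-GFP and at 19.2, 18.8 and 16.1 CPM with AAV-PRDM16. All 6 AAV-PRDM16 libraries were below all 6 AAV-GFP libraries, and over both genotypes Irf1 had the smallest p of the 18899 genes tested, with a log2 fold change of -0.61 (SE 0.08) and an adjusted p of 0.0453 by edgeR's quasi-likelihood test. That adjusted p ranged from 2.986e-08 to 0.141 over 18 alternatives and was under 0.05 in 7 of them, with log2 fold changes of -0.65 to -0.56, and without KO + AAV-GFP replicate 3 it was 0.0761. Nfyc, a subunit of the factor that binds CCAAT, had log2 fold changes of 0.20 (SE 0.11) in WT and 0.11 (SE 0.11) in KO, and Nfkb1, an NF-kB subunit, of -0.13 (SE 0.10) and -0.15 (SE 0.10).

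Of the 7 interferon ligands and receptors, 5 were tested in the AAV cohort. With AAV-PRDM16 all 5 were lower in WT, 2 at an unadjusted p under 0.05, with a median of -0.19, and 2 were lower and 3 higher in KO, 1 of the latter at that p, with a median of 0.00. Ifng, interferon gamma itself and named after its values were seen, was at 0, 0.400 and 0.0761 CPM in WT + AAV-GFP, at 0 counts in all 3 WT + AAV-PRDM16 libraries, at 0.0447, 0.0987 and 0.396 CPM in KO + AAV-GFP and at 0, 0.0925 and 0 CPM in KO + AAV-PRDM16. It overlapped between the viruses in both genotypes. Ifngr1, a chain of the interferon gamma receptor and also named after its values were seen, rose in KO over both viruses by 0.66 (SE 0.11) on the log2 scale, with an adjusted p of 0.0145 by edgeR's quasi-likelihood test that was under 0.05 in all 18 alternatives, the highest being 0.0417. Between viruses it was at -0.19 (SE 0.15) in WT and 0.35 (SE 0.15) in KO. Ifnar1 and Ifnar2, the chains of the type I interferon receptor, were at -0.25 (SE 0.09) and -0.11 (SE 0.10) in WT and at 0.00 (SE 0.09) and 0.06 (SE 0.10) in KO.

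Class II presentation genes, used by macrophages, dendritic cells and B cells, differed more between viruses than the class I list. All 7 were lower at an unadjusted p under 0.05 in each genotype, with medians of -1.31 and -1.65 beside -0.64 and -0.78 for class I. Cd74, the invariant chain, was at -1.34 (SE 0.42) in WT and -1.64 (SE 0.42) in KO, and H2-Aa and H2-Eb1, chains of the class II molecules, were at -1.31 (SE 0.41) and -1.27 (SE 0.39) in WT and at -1.65 (SE 0.41) and -1.68 (SE 0.39) in KO. Without KO + AAV-GFP replicate 3 the class II median in KO was -0.94, with 5 of 7 at an unadjusted p under 0.05, beside -0.30 for class I. The difference between the lists was not tested.

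In untreated KO against WT no gene of these lists was called by edgeR. Of all genes tested, 4.99% were higher and 10.9% were lower at an unadjusted p under 0.05. Of 11 other heavy chains tested 8 were higher, 1 at an unadjusted p under 0.05, with a median of 0.61, and 1, Cd1d1, was lower at that p, at -0.56 (SE 0.21). Peptide processing and loading had a median of 0.18, with 8 of 11 higher, and 2 higher and 2 lower at an unadjusted p under 0.05, Canx among the latter at -0.65 (SE 0.29). Regulators had a median of 0.16, with 8 of 15 higher, 2 higher and 1 lower at an unadjusted p under 0.05. Rela, an NF-kB subunit, was at 0.53 (SE 0.24). Class II genes were all 7 higher, none at an unadjusted p under 0.05, with a median of 0.77.

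The 10 genes varied together across libraries, more so in the AAV cohort. Over the 12 AAV libraries the 45 pairs had Pearson correlations of log2 CPM from 0.41 to 0.97, with a median of 0.88, the lowest being B2m with Tap2 and the highest H2-K1 with H2-D1. Over the 10 untreated libraries they ran from -0.66, for Tap2 with Nlrc5, to 0.99, for H2-Q4 with H2-Q6, with a median of 0.69. H2-T23 followed the mean of the list most closely in the AAV cohort, at 0.99, and Tap2 least, at 0.81. In the untreated cohort Nlrc5 stood at 0.15 with that mean, against 0.92 in the AAV cohort. These libraries share group differences and KO + AAV-GFP replicate 3, so the correlations describe these libraries and carry no test.

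Outside the list, the 10 genes whose log2 CPM followed the mean of the class I genes most closely over the 12 AAV libraries were Samhd1, H2-Ab1, H2-DMa, Ifi47, Psmb8, Unc93b1, Cotl1, Cxcl16, Selplg and Fam78a. Samhd1, a dNTP hydrolase that limits viral replication, was at 0.98, and H2-Ab1, a class II chain, at 0.97. Psmb8, a catalytic subunit of the immunoproteasome, was at 0.96 and was at 0.92 in the 10 untreated libraries as well. The untreated values of the 10 genes ran from -0.02 for Samhd1 to 0.92 for Psmb8, with H2-Ab1 at 0.86, Cxcl16 at 0.82 and Ifi47 at 0.44.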

How the data were processed

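RNA from 22 samples of mouse interscapular BAT was sequenced by the study. Per the submitters' processing notes, bcl2fastq 2.20, Trimmomatic 0.36, HISAT2 and the GRCm38.p6 build were used. The counting tool, annotation release, strand, and handling of duplicates and molecular identifiers are not given in the sources used here. The authors deposited whole-number counts per Ensembl gene, not normalized, and these were used as deposited. GENCODE mouse release 21 gave symbols, positions and exon lengths for 55141 of 55487 identifiers, and 0 columns belonged to other samples.

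In R 4.3.3, each cohort was filtered by expression, TMM-scaled and fitted with edgeR 4.0.16 (quasi-likelihood test, Benjamini-Hochberg adjustment over 17869 untreated or 18899 AAV genes, threshold 0.05). CPM per kb divides by the union of all annotated exons of a gene. The log2 CPM used a prior count of 2. Alternatives were DESeq2 1.42.0, voom with quality weights in limma 3.58.1, RLE scaling, no filter, a pairwise fit, summed H2-Q4, H2-Q6 and H2-Q7, a replicate block, the study's thresholds, the Y-linked covariate and leaving out libraries. The contrasts averaged over genotypes or viruses and the subset of libraries without Y-linked transcripts were added after seeing the data. The edgeR, voom and DESeq2 fits were tested on counts simulated with a common dispersion, for untreated KO against WT and KO against WT with AAV-GFP. The filter, RLE scaling, replicate block, covariate, interaction and averaged contrasts were not tested that way. All 10 members are described, and of each other list the 3 genes of highest mean CPM are named, with exceptions stated and 1 gene not reported here. The members and lists were chosen with earlier results of these data known.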

Additional observations from a re-analysis of the deposited data

Results flagged for a closer look

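Among the 20 values formed by the 10 genes in the 2 untreated groups of 5 libraries, 1 library stood far from the others. H2-Q4 in the untreated KO group was highest in replicate 2, at 66.3 CPM, while the other 4 KO libraries were at 30.3 to 39.9 CPM. The gap between this library and the next, divided by the whole range of the group, was above the 95% critical value for 5 samples. Chance gives such a value in about 1 in 20 groups. No member passed the threshold in the test of a genotype by virus interaction.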

How the results depend on the processing

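No member was called at an adjusted p of 0.05 by edgeR in any comparison, and counts of calls moved as follows. DESeq2 called 1 (AAV-PRDM16 against AAV-GFP in WT), 2 (in KO), 7 (over both genotypes), 1 (KO + AAV-PRDM16 against WT + AAV-GFP) and 1 (KO against WT over both viruses), and RLE scaling and no filter on low counts each called 1 between viruses over both genotypes, Tap1. At the study's thresholds of 2-fold and FDR 0.5, 1 (WT), 2 (KO) and 3 (both genotypes) members were called between viruses. The shares of all genes at these thresholds are not given here, nor those for RLE scaling, no filter or the replicate block. Such counts therefore have no background beside them. Leaving out a library gave 0 to 4 calls between viruses over both genotypes, and medians of -1.01 to -0.30 between viruses in KO, -0.16 to 0.54 for KO against WT with AAV-GFP, 0.13 to 0.31 with AAV-PRDM16, 0.06 to 0.42 over both viruses and -0.28 to 0.36 for the interaction. The cause was not tested. The replicate block called 1, B2m with an adjusted p of 0.0428, for KO against WT over both viruses, and changed no other call. Same-numbered libraries had correlations of deviations of -0.0912 to 0.154 in the AAV cohort and -0.292 to 0.111 in the untreated cohort, not all above 0.1, so the numbers were not taken to pair the samples.

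Of 1476 single-gene values under alternatives, 26 had the other sign, none of them between viruses within or over genotypes. Among the 6 untreated libraries without Y-linked transcripts H2-Q4 was at -0.031 and H2-Q6 at -0.085. With voom, H2-K1 was at -0.017 and H2-Q4 at -0.063 with AAV-GFP, B2m at -0.096 in KO + AAV-PRDM16 against WT + AAV-GFP, and H2-Q4 at -0.003178 and Tap1 at -0.087 in KO against WT over both viruses. Leaving out 1 library gave the other cases, listed as the range over libraries left out. For KO against WT with AAV-GFP the log2 fold change ran from -0.14 to 0.47 for H2-K1, -0.29 to 0.51 for H2-Q4, -0.062 to 0.87 for H2-Q6, -0.18 to 0.84 for H2-Q7, -0.094 to 0.82 for H2-T23, -0.44 to 0.10 for Tap1 and -0.22 to 0.68 for Nlrc5, each lowest without KO + AAV-GFP replicate 3. With AAV-PRDM16 it ran from -0.032 to 0.20 for Tap1 and -0.014 to 0.23 for Nlrc5. Over both viruses it ran from -0.10 to 0.30 for H2-Q4, -0.16 to 0.11 for Tap1 and -0.066 to 0.38 for Nlrc5, and in KO + AAV-PRDM16 against WT + AAV-GFP from -0.21 to 0.23 for B2m. Groups of 3 libraries, deposited counts without a stated counting rule, and close paralogs limit the precision of single members.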
